A study of Homo sapiens with 16 samples.

Results

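This comparison set breast cancer cell lines that needed little topsentinol L trisulfate (TLT) against lines that needed more of it, in cells that had not received the compound. TLT is a sterol from a marine sponge that carries 3 sulfate groups, and EC50 is the concentration that gives 50% of its full effect on viability. The members were chosen by the EC50 of each line for TLT, which is not a measurement of RNA. The 3 lines with an EC50 of 50 µM or less were HCC70, MDA-MB-231 and MDA-MB-157, here called the low EC50 lines. The 5 lines at 69 µM or more were MDA-MB-468, HCC1143, HCC1395, MDA-MB-436 and HCC38, the high EC50 lines. Of the 16 RNA-seq libraries of the series, 8 were used, 1 per line, all from cells kept for 6 h with the vehicle DMSO in medium with fetal bovine serum. The other 8 were of the same lines with TLT and enter only where named.

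All 8 are established human lines from different tumors, so a difference between the groups is a difference between a few unrelated cancers. The low EC50 lines were 1 basal-like line (HCC70) and 2 claudin-low lines, and the high EC50 lines 3 basal-like (MDA-MB-468, HCC1143 and HCC1395) and 2 claudin-low. Basal-like tumors carry keratins of the basal layer of the breast epithelium, and claudin-low tumors have lost claudins and E-cadherin and express vimentin. The values for CDH1 (E-cadherin) were 15234 in HCC70, 0 in MDA-MB-231 and 1.16 in MDA-MB-157, against 3134 in MDA-MB-468, 5453 in HCC1143, 14.2 in HCC1395, 5.99 in MDA-MB-436 and 26.0 in HCC38. HCC1395 thus went against its subtype in E-cadherin, and with EPCAM at 14.2 and vimentin (VIM) at 28234, levels in the range of the claudin-low lines. Its basal markers were mixed. KRT14, at 2214, was the highest of the 8 lines, and KRT6B was at 219, while KRT5 was at 80.6, KRT17 at 19.7 and TRIM29 at 3.03. ESR1, the estrogen receptor, was at most 68.9 in any line, and the leukocyte gene PTPRC was at most 1.01. Of 28 markers of leukocytes, endothelium and stroma, 11 to 15 were at 0 in a low EC50 line and 10 to 16 in a high EC50 line, and their summed value was 2440.0 to 5070.9 in the low and 452.6 to 3793.7 in the high EC50 lines. Among these markers the macrophage gene CD68 or the smooth muscle gene ACTA2 was the highest in every line except MDA-MB-468, and the part of these genes in other differences was not tested.

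The unit is a normalized signal, an RSEM estimate per gene scaled by the authors to the upper quartile of its library. On this scale 1000 stands near the 75th percentile of the genes above 0. The steps between low values put the depth at 12.2 to 14.4 M reads in the low EC50 lines and 12.7 to 18.8 M in the high EC50 lines, with 15303 to 16345 genes above 0 in the low and 15850 to 16609 in the high EC50 lines. Lane 1 of the sequencer carried the MDA-MB lines and lane 2 the HCC lines, so that lane 1 held 2 low and 2 high EC50 lines and lane 2 held 1 low and 3 high. The line is the replicate, and whether a library came from more than 1 culture is not given in the sources used here, so p-values measure the spread between lines. In these bulk libraries, fewer cells of a type and less RNA per cell cannot be told apart.

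Cells make cholesterol in a pathway that is switched on when membrane sterol is low, and sulfated steroids are handled by carriers, sulfatases and sulfotransferases. From a wider protein screen, the study followed 3 kinases by their phosphorylation after TLT. It also tested inhibitors of AMPK and CHK1, and reported that overexpressing either kinase lowered the EC50 of TLT in the lines tried. The values given here are RNA levels, which do not measure phosphorylation or kinase activity. AMPK, a complex of an α, a β and a γ subunit, senses low energy and restrains sterol and fatty acid synthesis. CHK1 is activated by ATR at stalled replication forks, and p38 is a kinase of the stress response. The genes of these pathways, and of others that are common in breast cancer lines, were therefore followed from lists.

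No gene passed the test between the groups. In limma on log2(value + 1), over the 14378 genes with a mean of at least 10, 0 genes (0%) had an adjusted p under 0.05, and the lowest adjusted p was 0.9996. At an unadjusted p under 0.05, 174 genes (1.21%) were higher and 265 (1.84%) lower in the low EC50 lines. The lowest value of the low EC50 lines lay above the highest of the high EC50 lines for 113 genes (0.786%), and the highest of the low EC50 lines lay below every high EC50 line for 270 genes (1.88%). All values below are therefore given as levels of lines, and none of the genes named can be called different between the groups. Log2 differences are means of the low EC50 lines minus means of the high EC50 lines, with their standard error, and a gene is called apart where the groups do not overlap. The shares of all genes given here are the background for every count of list members below.

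The direction of these counts depended on the scaling. The median log2 difference over all genes tested was −0.13, and 40.4% of genes lay above 0. With median-of-ratios scaling in place of the upper quartile, the median was −0.0084, and the unadjusted counts turned to 251 higher and 173 lower, with 182 genes apart above and 194 apart below. Of the genes apart above, 110 of 113 (97.3%) were still apart with that scaling, and of those apart below 182 of 270 (67.4%).

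The genes with the widest gap among those above in the low EC50 lines, of which 9 are described, included a transcription factor, a sulfate-activating enzyme and several genes of the cytoskeleton and cell surface. They were chosen by that gap, with a lowest value of at least 50 in the low EC50 lines, so their values are a description. GLIS3, a zinc finger transcription factor (chr9:3824127-4348392, GRCh37, minus strand), had 266 in HCC70, 161 in MDA-MB-231 and 511 in MDA-MB-157, against 13.8 in MDA-MB-468, 13.9 in HCC1143, 22.2 in HCC1395, 44.9 in MDA-MB-436 and 50.8 in HCC38. Even its lowest low EC50 line thus stood well above every high EC50 line, and the log2 difference was 3.43 ± 0.82. It was 3.47 within lane 1 and 3.35 within lane 2, where its sign was fixed in advance because the groups do not overlap. DYSF, which encodes the membrane repair protein dysferlin, had 609, 2219.8 and 274 in HCC70, MDA-MB-231 and MDA-MB-157, against 113, 11.2, 0, 94.8 and 5.91 in MDA-MB-468, HCC1143, HCC1395, MDA-MB-436 and HCC38. Its values spread widely within each group, and the log2 difference was 5.53 ± 1.54.

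CAPG, which caps actin filaments, had 3737, 5201 and 5431 in HCC70, MDA-MB-231 and MDA-MB-157, against 1250.4 in MDA-MB-468, 559 in HCC1143, 353 in HCC1395, 2157 in MDA-MB-436 and 69.7 in HCC38. FAM129A, a gene induced in stress responses and now named NIBAN1, had 1821 to 2165 in the low EC50 lines, against 10.2 to 1064 in the high EC50 lines. For both genes the low EC50 lines were close to each other and the high EC50 lines spread widely. IGFBP4, a secreted binding protein of insulin-like growth factors, had 1583 to 4536 in the low EC50 lines, against 17.2 to 643 in the high EC50 lines other than MDA-MB-468, where it lay at the upper quartile of the library. CLIP4, related to microtubule-binding proteins, had 661 to 869 in the low EC50 lines, against 4.73 to 350.4 in the high EC50 lines. WFIKKN1, a secreted protease inhibitor-like protein, was the lowest of these genes, with 51.5 to 119 in the low EC50 lines, against 16.97 to 28.4 in the high EC50 lines. TYW1B had 253 to 440.4 in the low EC50 lines, against 84.5 to 126 in the high EC50 lines, but it shares reads with a near-identical copy, so its level is uncertain. IGFBP4 was the last gene inside the limit, with a gap of 0.662 on the log2 scale, and SAMD4A, with a gap of 0.656, the first outside it.

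**Figure D1:**
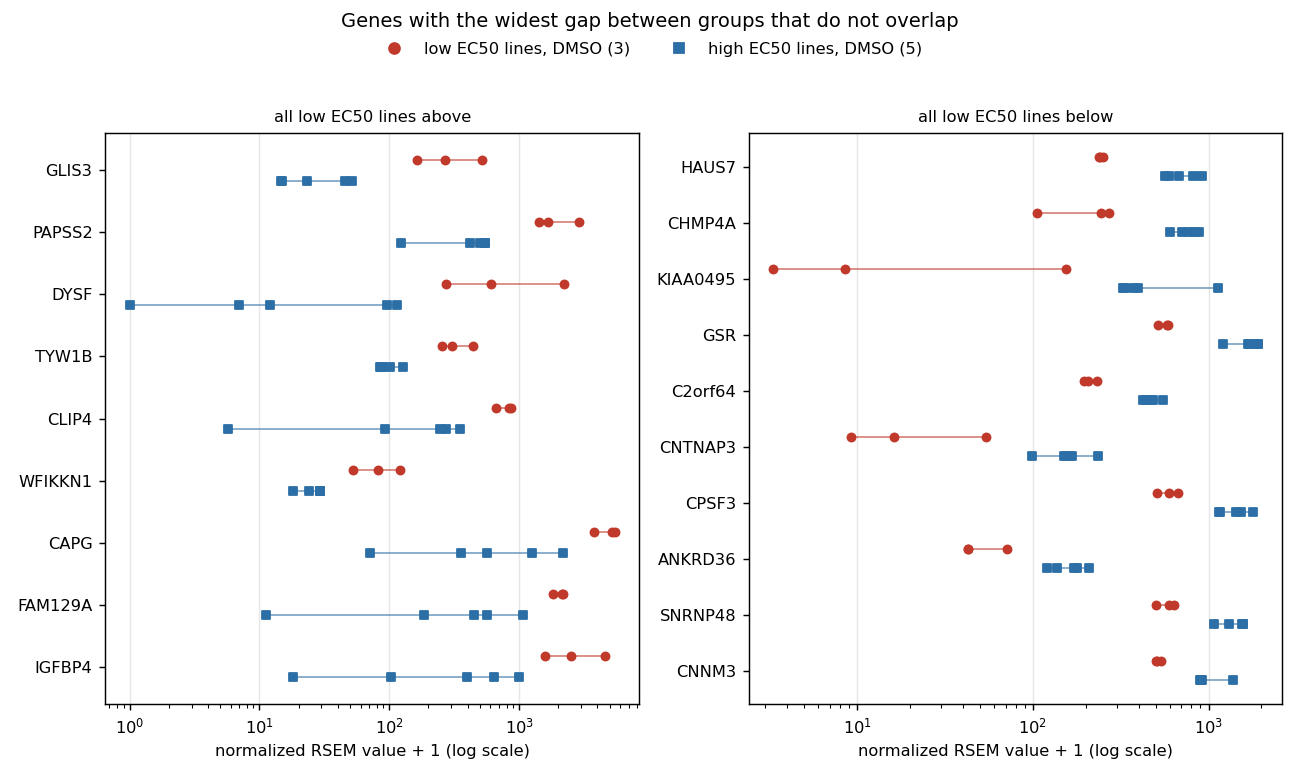
The normalized RSEM value plus 1 (log scale) of genes with the widest gap on each side (9 above and 10 below), 1 point per line, with low EC50 lines as circles and high EC50 lines as squares and a thin line over the range of each group. The genes on the left have all 3 low EC50 lines above all 5 high EC50 lines, as with GLIS3 from 161 to 511 against 13.8 to 50.8, and the genes on the right have them below.

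The list of cholesterol synthesis and uptake, with 27 members tested, had a median of 0.15 against −0.13 over all genes, with an unadjusted p under 0.05 for 2 members above and 1 below. IDI1, the isopentenyl diphosphate isomerase, named after its values were seen, had 4448, 3876 and 3232 in HCC70, MDA-MB-231 and MDA-MB-157, against 4106, 2286, 1855, 1479 and 1669 in MDA-MB-468, HCC1143, HCC1395, MDA-MB-436 and HCC38, with a log2 difference of 0.85 ± 0.37. The groups overlapped only through MDA-MB-468. TM7SF2, a sterol reductase, was the lower one, with 192, 27.6 and 26.7 in the same low EC50 lines, against 86.8 to 390.1 in the high EC50 lines, and a log2 difference of −1.98 ± 0.85. HMGCS1 (1461 to 3197 in the low, 1076 to 7836 in the high EC50 lines) and INSIG1 (1608 to 3939 in the low, 569 to 11492 in the high EC50 lines), both targets of the sterol-sensing factor SREBP2, and named after their values were seen, overlapped fully.

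Of 23 genes tested for sterol transport, storage and sensing, 0 were higher and 1 was lower at an unadjusted p under 0.05. OSBPL1A, an oxysterol-binding protein of late endosomes, had 506, 372 and 338 in HCC70, MDA-MB-231 and MDA-MB-157, against 898, 757, 1403, 687 and 675 in MDA-MB-468, HCC1143, HCC1395, MDA-MB-436 and HCC38. Every low EC50 line was below every high EC50 line, with a log2 difference of −1.09 ± 0.36 (limma, unadjusted p = 0.0127). The list median was 0.17.

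PAPSS2, which makes the activated sulfate that sulfotransferases use (chr10:89419370-89507462, GRCh37, plus strand), stood apart above among the genes of steroid sulfates. Its values were 1418 in HCC70, 2882 in MDA-MB-231 and 1656 in MDA-MB-157, against 548 in MDA-MB-468, 122 in HCC1143, 419 in HCC1395, 542 in MDA-MB-436 and 498 in HCC38. HCC1143 was far below the other high EC50 lines, which were close together. The log2 difference was 2.33 ± 0.53 (limma, unadjusted p = 0.0014), and it was 2.12 with lane as a term, 2.22 within basal-like and 2.07 within claudin-low lines. PAPSS2 was among the genes chosen by the widest gap, so these values are a description. Since its groups do not overlap, its sign within a subtype was fixed in advance. HCC70 was the only low EC50 line among the basal-like lines. STS, the steroid sulfatase that removes sulfate from steroids, had 2445, 422 and 376 in HCC70, MDA-MB-231 and MDA-MB-157, against 131 to 494 in the high EC50 lines. HCC70 alone was high, the groups overlapped, and the log2 difference was 1.58 ± 0.70, or 0.71 without HCC70. These were the 2 of 15 members tested with an unadjusted p under 0.05, and the list had a median of −0.25 and 40.0% of members above 0, against 40.4% of all genes. Of the 8 ABC drug exporters tested, 0 had an unadjusted p under 0.05. Of 24 phase I and conjugation enzymes, 1 was higher, AKR1C3, a ketosteroid reductase, with 2041, 439 and 322 in HCC70, MDA-MB-231 and MDA-MB-157, against 103, 18.9, 1579, 10.4 and 17.8 in MDA-MB-468, HCC1143, HCC1395, MDA-MB-436 and HCC38. HCC1395 was within the range of the low EC50 lines.

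**Figure D2:**
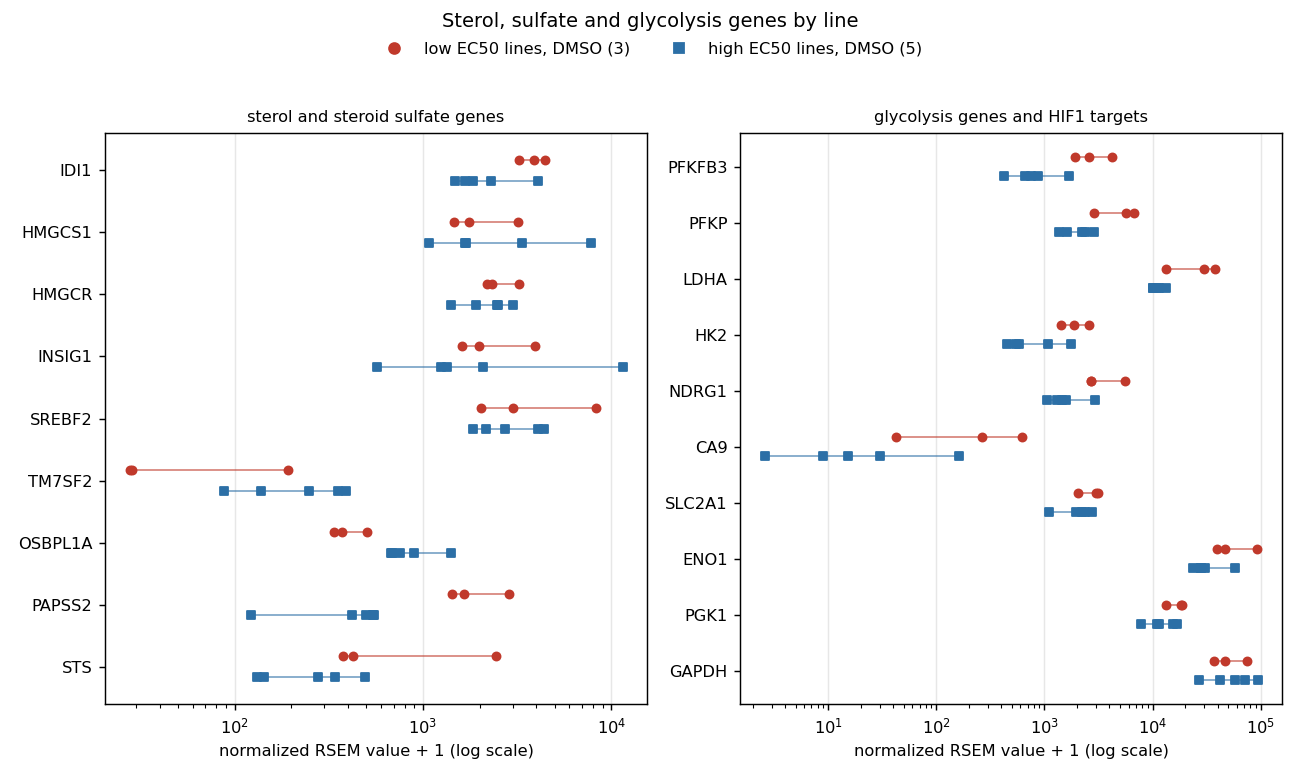
The normalized RSEM value plus 1 (log scale) of genes of sterol and steroid sulfate metabolism (left) and of glycolysis and HIF1 targets (right), 1 point per line, with low EC50 lines as circles and high EC50 lines as squares. PAPSS2 (1418 to 2882 against 122 to 548), OSBPL1A, PFKFB3, PFKP and LDHA are the genes shown whose groups do not overlap.

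The list with the most members at an unadjusted p under 0.05 was that of glycolysis and HIF1 targets. HIF1 is the transcription factor of low oxygen, which raises the enzymes that turn glucose into lactate. Of 23 members, all tested, 6 were higher at that level and 0 lower, where 1.21% of all genes were higher, 3 were apart above, 78.3% lay above 0, and the median was 0.46 against −0.13 over all genes. Of all 31 lists, 10 had no such member, 15 had 1, and 5 had 2 or 3. The summed value of the glycolysis list did not separate the groups. It was 223367 in HCC70, 278763 in MDA-MB-231 and 296374 in MDA-MB-157, against 143156 to 248682 in the high EC50 lines. Of the 3 members apart, PFKP and LDHA were so by gaps of only 0.0017 and 0.012 on the log2 scale.

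PFKFB3, which makes the activator of phosphofructokinase, had 2595 in HCC70, 1929.6 in MDA-MB-231 and 4223 in MDA-MB-157, against 656 in MDA-MB-468, 1703 in HCC1143, 864 in HCC1395, 749 in MDA-MB-436 and 423 in HCC38. The nearest lines were MDA-MB-231 and HCC1143, and the log2 difference was 1.81 ± 0.46 (limma, unadjusted p = 0.0028). PFKP, the platelet form of phosphofructokinase, had 2857, 5641 and 6769 in HCC70, MDA-MB-231 and MDA-MB-157, against 1613, 2854, 2360.2, 2206 and 1358 in MDA-MB-468, HCC1143, HCC1395, MDA-MB-436 and HCC38, a log2 difference of 1.25 ± 0.38. LDHA, the lactate dehydrogenase A chain, had 13327, 29984 and 38054 in the same low EC50 lines, against 11031, 13213, 11466, 10077 and 10111 in the same high EC50 lines, a log2 difference of 1.16 ± 0.36. For both PFKP and LDHA, HCC70 was level with HCC1143, and the 2 claudin-low lines of low EC50 stood well above all others. Within lane 1 the LDHA difference was 1.68 and within lane 2 it was 0.21.

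HK2, the hexokinase of the first step, had 1426, 1896 and 2589 in HCC70, MDA-MB-231 and MDA-MB-157, against 1079, 453, 585, 1754 and 548 in MDA-MB-468, HCC1143, HCC1395, MDA-MB-436 and HCC38, a log2 difference of 1.31 ± 0.48. MDA-MB-436 was the high EC50 line within the range of the low ones. NDRG1, a HIF1 target of stress responses, had 5576, 2677 and 2718 in the low EC50 lines, against 1064 to 2936 in the high EC50 lines. CA9, the carbonic anhydrase that HIF1 induces most clearly in tumors, had 622 in HCC70, 41.3 in MDA-MB-231 and 261 in MDA-MB-157, against 160.3 in MDA-MB-468, 14.3 in HCC1143, 7.92 in HCC1395, 29.2 in MDA-MB-436 and 1.60 in HCC38. Its log2 difference was 3.43 ± 1.41, but 0.59 within lane 1 and 6.46 within lane 2. LDHA, HK2, NDRG1 and CA9 were named after their values were seen, and oxygen and glucose in the cultures were not measured.

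HIF1 binds the core ACGTG, read as CACGT from the other strand, and 3 promoter windows of these genes are shown, chosen for their number of matches after these had been counted. The windows are from RefSeq (GRCh38.p14), 250 bases before to 50 after the start of the gene, read along the gene, and the capitals mark each ACGTG match on either strand.
LDHA: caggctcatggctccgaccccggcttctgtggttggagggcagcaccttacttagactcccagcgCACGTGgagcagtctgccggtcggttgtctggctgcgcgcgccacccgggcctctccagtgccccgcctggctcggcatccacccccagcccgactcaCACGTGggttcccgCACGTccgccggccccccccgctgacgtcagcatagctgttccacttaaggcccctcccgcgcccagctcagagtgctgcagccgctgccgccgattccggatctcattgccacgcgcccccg
PFKFB3: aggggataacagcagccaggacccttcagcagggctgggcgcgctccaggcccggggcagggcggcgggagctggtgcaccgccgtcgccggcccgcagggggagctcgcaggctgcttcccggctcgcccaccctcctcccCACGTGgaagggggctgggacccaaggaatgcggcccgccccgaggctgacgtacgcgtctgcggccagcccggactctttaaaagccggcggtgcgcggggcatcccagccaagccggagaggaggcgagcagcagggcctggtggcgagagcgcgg
HK2: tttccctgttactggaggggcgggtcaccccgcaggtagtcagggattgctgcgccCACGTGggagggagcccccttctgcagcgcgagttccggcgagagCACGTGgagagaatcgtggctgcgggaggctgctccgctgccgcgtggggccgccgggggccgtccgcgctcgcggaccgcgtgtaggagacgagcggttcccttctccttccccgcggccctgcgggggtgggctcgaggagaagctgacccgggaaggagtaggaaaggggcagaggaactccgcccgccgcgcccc
The LDHA window (chr11:18394313-18394612, plus strand) held 5 matches in 3 blocks, since CACGTG reads as a match on both strands. The PFKFB3 window (chr10:6202682-6202981, plus strand) held 2 matches in 1 block, and the HK2 window (chr2:74834920-74835219, plus strand) 4 matches in 2 blocks. Other starts of the same genes differed, with 0 matches in the second LDHA window (chr11:18396101-18396400), 0 in the second PFKFB3 window (chr10:6144671-6144970) and 2 in the second HK2 window (chr2:74833877-74834176). PFKP had 0 matches in 3 of its 4 windows and 1 in the other, and CA9 had 1 in its only window. Among all genes with a window, 6790 of 27305 (24.9%) held the core in at least 1 window, and in the glycolysis list 12 of 19 did (63.2%). That list was made to hold HIF1 targets, so its share describes the list and is not a result about EC50. A gene with more windows also has more chances of a match. CACGTG is also the E-box that other factors bind, and a match is a run of letters, not a measured site.

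The 10 genes with the widest gap below in the low EC50 lines, chosen in the same way, included genes of the spindle, RNA processing, mitochondria and the redox state of the cell. HAUS7, a subunit of the augmin complex of the spindle (chrX:152713126-152760974, GRCh37, minus strand), had 239, 240.3 and 248 in HCC70, MDA-MB-231 and MDA-MB-157, against 597, 676, 914, 812 and 567 in MDA-MB-468, HCC1143, HCC1395, MDA-MB-436 and HCC38. The low EC50 lines were nearly equal, at 242.5 ± 5.26 (SD, n = 3), against 713.3 ± 147 in the high EC50 lines (SD, n = 5). GSR, glutathione reductase, which keeps glutathione in its reduced form (chr8:30535583-30585363, GRCh37, minus strand), had 586, 514 and 579.6 in the low EC50 lines, against 1692, 1207, 1916, 1669 and 1904 in the high EC50 lines in the same order. No line lay between 586 and 1207, and the log2 difference was −1.56 ± 0.29. It was −1.62 in lane 1, −1.48 in lane 2, −1.42 within basal-like and −1.71 within claudin-low lines. Since the groups do not overlap, its sign could not differ between these subsets. The list of NRF2 targets, which are genes of the antioxidant response, did not hold GSR. It had 0 of 19 members at an unadjusted p under 0.05 and a median of −0.12, level with that of all genes.

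CHMP4A, of the ESCRT-III membrane scission complex, had 104 in HCC70, 270.0 in MDA-MB-231 and 243 in MDA-MB-157, against 607 to 879 in the high EC50 lines. CPSF3, the endonuclease that cuts pre-mRNA before polyadenylation, had 511 to 673 in the low EC50 lines, against 1149.6 to 1784 in the high EC50 lines. SNRNP48, of the minor spliceosome, had 505 to 633 in the low EC50 lines, against 1077 to 1569 in the high EC50 lines. For each of the 3 genes, no low EC50 line reached the level of any high EC50 line. KIAA0495, a noncoding RNA gene beside TP73, had 153, 7.54 and 2.32 in HCC70, MDA-MB-231 and MDA-MB-157, against 325 to 1137 in the high EC50 lines, a log2 difference of −4.77 ± 1.12. The difference was −6.08 in lane 1 and −1.75 in lane 2, where HCC70 was the only low EC50 line.

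C2orf64, now named COA5, an assembly factor of cytochrome c oxidase, had 193 to 230.1 in the low EC50 lines, against 425 to 550.2 in the high EC50 lines. CNNM3, a magnesium transport mediator, had 499 to 533 in the low EC50 lines, against 888 to 1369 in the high EC50 lines. Both lie on chromosome 2 near ANKRD36, which had 41.8 to 70.3 in the low EC50 lines, against 120.3 to 209 in the high EC50 lines. CNTNAP3, a cell adhesion gene, had 8.25 to 52.9 in the low EC50 lines, against 97.6 to 235 in the high EC50 lines. ANKRD36 and CNTNAP3 have near-identical copies that can share reads, so their levels are uncertain. CNNM3 closed the list with a gap of −0.74 on the log2 scale, and TUBGCP5, with −0.70, was the first outside it.

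Of the AMPK subunits, PRKAB2 and PRKAG2 stood apart, on opposite sides, and by little. PRKAB2, the β2 subunit, had 676 in HCC70, 376 in MDA-MB-231 and 496 in MDA-MB-157, against 948 in MDA-MB-468, 764 in HCC1143, 827 in HCC1395, 928 in MDA-MB-436 and 843 in HCC38. Every low EC50 line was below every high EC50 line, and the log2 difference was −0.78 ± 0.32 (limma, unadjusted p = 0.0337). It was −1.12 in lane 1 and −0.26 in lane 2. PRKAG2, the γ2 subunit, stood on the other side, with 852, 662 and 683 in HCC70, MDA-MB-231 and MDA-MB-157, against 489.8, 352, 644, 362 and 249 in MDA-MB-468, HCC1143, HCC1395, MDA-MB-436 and HCC38. HCC1395 came within 0.04 of MDA-MB-231 on the log2 scale, and the log2 difference was 0.87 ± 0.39 (limma, unadjusted p = 0.0480). With median-of-ratios scaling the groups overlapped for PRKAB2, and the gap of PRKAG2 was 0.00014.

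The other AMPK subunits overlapped. PRKAA1, the α1 catalytic subunit, had 4228 in HCC70, 2815 in MDA-MB-231 and 1668 in MDA-MB-157, against 1601 to 2174 in the high EC50 lines, a log2 difference of 0.50 ± 0.34 with an exact permutation p of 0.179 (two-sided, 56 assignments, smallest possible 0.0357). The PRKAA1 difference was 0.18 without HCC70 and 0.85 without MDA-MB-157. PRKAA2, the α2 subunit, separated the lines without regard to EC50, with 197, 245 and 5.81 in HCC70, MDA-MB-231 and MDA-MB-157, against 711, 0.929, 5.06, 694 and 767 in MDA-MB-468, HCC1143, HCC1395, MDA-MB-436 and HCC38. PRKAB1 had 324 to 608 in the low and 217 to 889 in the high EC50 lines, and PRKAG1 618 to 1454 in the low and 935 to 1996 in the high EC50 lines. STK11, which encodes LKB1, the kinase that activates AMPK, had 562 to 1107 in the low and 703 to 1572 in the high EC50 lines. PRKAG3 did not pass the filter on low values. Of 15 members tested in the list of AMPK subunits and upstream kinases, PRKAG2 and PRKAB2 were the 2 with an unadjusted p under 0.05, and the median was −0.26.

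**Figure D3:**
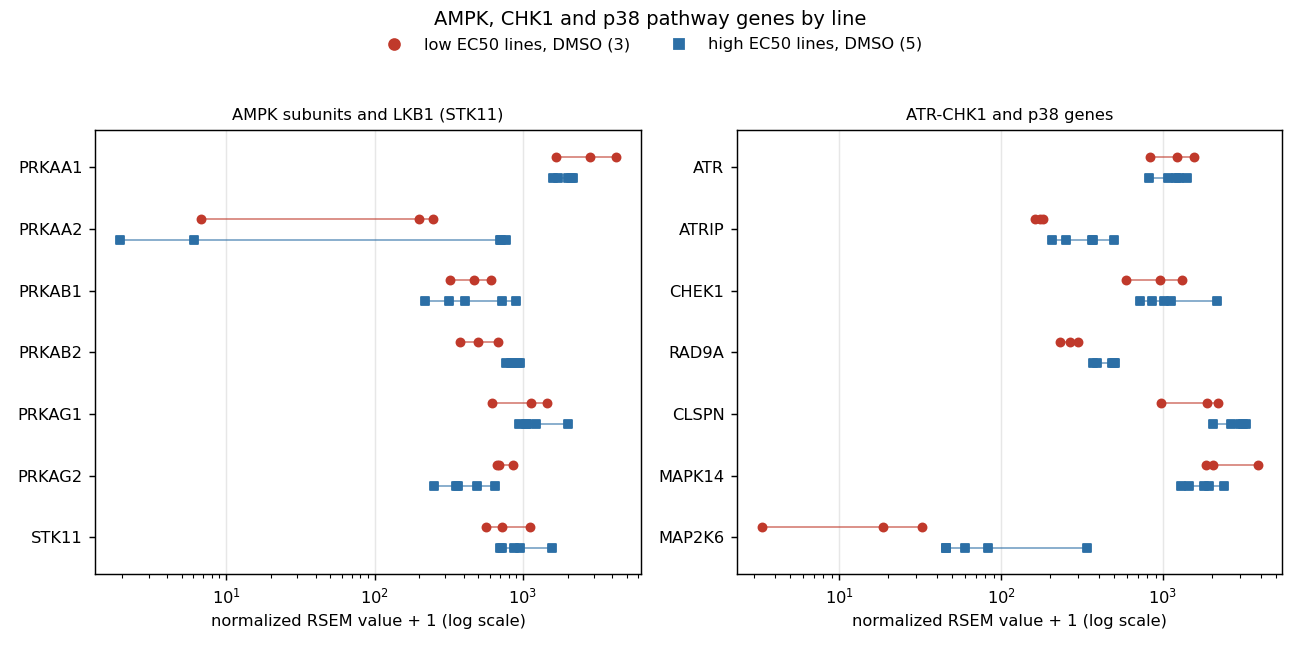
The normalized RSEM value plus 1 (log scale) of genes of the AMPK complex and its upstream kinase STK11 (left) and of the ATR-CHK1 and p38 pathways (right), 1 point per line, with low EC50 lines as circles and high EC50 lines as squares. PRKAB2, PRKAG2, ATRIP, RAD9A and MAP2K6 are the genes shown whose groups do not overlap, while CHEK1 runs from 588 to 1318 in low and from 719 to 2146 in high EC50 lines.

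CHEK1, the gene of CHK1, did not separate the groups. It had 957 in HCC70, 1318 in MDA-MB-231 and 588 in MDA-MB-157, against 2146 in MDA-MB-468, 1008 in HCC1143, 1122 in HCC1395, 719 in MDA-MB-436 and 851 in HCC38, a log2 difference of −0.26 ± 0.43 with an exact permutation p of 0.607. Its sign turned within claudin-low lines, where the difference was 0.17. ATR had 832 to 1555 in the low and 816 to 1409.9 in the high EC50 lines. Of 18 genes of the ATR-CHK1 checkpoint, 0 were higher and 1 was lower at an unadjusted p under 0.05, 2 were apart below, and the median was −0.32. Of all genes, 1.84% were lower at that level and 1.88% were apart below.

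ATRIP, the partner that brings ATR to single-stranded DNA, had 161, 182 and 173 in HCC70, MDA-MB-231 and MDA-MB-157, against 250.1, 205, 498, 371 and 363 in MDA-MB-468, HCC1143, HCC1395, MDA-MB-436 and HCC38. The low EC50 lines were nearly level, and the log2 difference was −0.90 ± 0.44 (ATRIP was named after its values were seen). RAD9A, of the sliding clamp that activates ATR, had 297, 229.8 and 265 in the same low EC50 lines, against 370.5 to 504 in the high EC50 lines, with a log2 difference of −0.76 ± 0.34. CLSPN, the claspin adaptor that presents CHK1 to ATR, had 2179, 1862 and 969 in the low EC50 lines, against 2035 to 3231 in the high EC50 lines, with a log2 difference of −0.80 ± 0.34. HCC70 was above HCC38 there, so the groups overlapped, and without MDA-MB-157 the CLSPN difference was −0.45.

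Of 14 genes of the p38 pathway, 1 was lower and 0 higher at an unadjusted p under 0.05. MAP2K6, which encodes the p38 kinase kinase MKK6, had 2.34 in HCC70, 17.6 in MDA-MB-231 and 31.4 in MDA-MB-157, against 44.6 in MDA-MB-468, 338 in HCC1143, 44.5 in HCC1395, 58.9 in MDA-MB-436 and 81.6 in HCC38. It was low in all lines but HCC1143, and the log2 difference was −2.68 ± 1.09, or −1.72 without HCC70. MAPK14, the gene of p38α, had 2047, 3839 and 1853 in HCC70, MDA-MB-231 and MDA-MB-157, against 1286 to 2387 in the high EC50 lines, a log2 difference of 0.50 ± 0.35 with an exact permutation p of 0.214. Without MDA-MB-231 it was 0.18.

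HBEGF, a ligand of the epidermal growth factor receptor, stood apart above in the low EC50 lines (chr5:139712428-139726188, GRCh37, minus strand). It had 391 in HCC70, 1538 in MDA-MB-231 and 817 in MDA-MB-157, against 142 in MDA-MB-468, 322 in HCC1143, 266 in HCC1395, 145 in MDA-MB-436 and 142 in HCC38. HCC70 was near HCC1143, and the difference of 2.05 ± 0.54 (limma, unadjusted p = 0.0033) was 2.96 within claudin-low and 0.77 within basal-like lines. It was the 1 of 11 ERBB receptors and ligands tested with an unadjusted p under 0.05, while 81.8% of them lay above 0 and the median was 0.56. EGFR itself, named after its values were seen, had 2027 to 4161 in the low EC50 lines and 322 to 3403 in the high EC50 lines other than MDA-MB-468, which had 37278. EPHA2, an ephrin receptor, had 2490.0, 5813 and 3072 in HCC70, MDA-MB-231 and MDA-MB-157, against 427, 1523, 1247, 1721 and 487 in MDA-MB-468, HCC1143, HCC1395, MDA-MB-436 and HCC38. No lines overlapped, with a difference of 1.94 ± 0.54 (limma, unadjusted p = 0.0051), and EPHA2 was the only one apart of the 24 other receptor tyrosine kinases, whose median was −0.30. FGFR2 was the member on the lower side, with 109, 18.8 and 2.32 in HCC70, MDA-MB-231 and MDA-MB-157, against 42.8 to 731 in the high EC50 lines. INPP4B, a phosphoinositide phosphatase of the PI3K pathway, had 196 to 384 in the low EC50 lines, against 7.98 to 302 in the high EC50 lines, and was the 1 of 24 RAS-ERK and PI3K-AKT genes at that level.

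Proliferation genes had a median under that of all genes, but 0 members had an unadjusted p under 0.05. Of 23 members, 4.35% lay above 0, with a median of −0.41, and −0.29 with median-of-ratios scaling. RRM2, the small subunit of ribonucleotide reductase, had 5586, 4599 and 6480.2 in HCC70, MDA-MB-231 and MDA-MB-157, against 5703 to 12002 in the high EC50 lines, a log2 difference of −0.69 ± 0.31 with an exact permutation p of 0.0714. Among 19 genes of homologous recombination and the Fanconi pathway, 5.26% lay above 0, with the same median of −0.41, and FANCD2, the ubiquitinated core of that pathway, was apart below, with 694, 800.2 and 780.5 in the low EC50 lines, against 865, 1705, 1358, 2479.9 and 909 in MDA-MB-468, HCC1143, HCC1395, MDA-MB-436 and HCC38. Its difference was −0.84 ± 0.39, and HCC38 and MDA-MB-468 were close to the low EC50 lines. With median-of-ratios scaling the FANCD2 groups overlapped. How fast the lines grew was not measured, and its part in these values was not tested.

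Of 17 genes of the p53 pathway, 2 were lower at an unadjusted p under 0.05 and the median was −0.60. GADD45A, a DNA damage gene, had 373, 648 and 522 in HCC70, MDA-MB-231 and MDA-MB-157, against 1179, 722, 661, 1549 and 991 in MDA-MB-468, HCC1143, HCC1395, MDA-MB-436 and HCC38, a difference of −0.95 ± 0.38 in which MDA-MB-231 and HCC1395 nearly met. XPC, a damage sensor of nucleotide excision repair, had 294, 386 and 556 in the same low EC50 lines, against 449.8 to 1746 in the high EC50 lines, a difference of −1.22 ± 0.48. BCL2L2, the anti-apoptotic BCL-w, was the 1 of 21 genes of the BCL2 family and caspases that stood apart, with 515, 422 and 412 in the low EC50 lines, against 588 to 977 in the high EC50 lines and a difference of −0.75 ± 0.31. That list had a median of −0.04. With median-of-ratios scaling the groups overlapped for both GADD45A and BCL2L2.

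For all tested genes of cell identity the groups overlapped. The 24 epithelial junction and claudin genes had a median of −0.63, with 25.0% above 0. Of 21 mesenchymal genes, 1 was higher at an unadjusted p under 0.05, LOX, which cross-links collagen, with 481, 721 and 558 in HCC70, MDA-MB-231 and MDA-MB-157, against 109, 57.6, 589, 131 and 87.5 in MDA-MB-468, HCC1143, HCC1395, MDA-MB-436 and HCC38. HCC1395 was the high EC50 line in the low EC50 range. COL1A1, the type I collagen chain, had 306, 16060.3 and 12124 in HCC70, MDA-MB-231 and MDA-MB-157, against 97.8 to 4808 in the high EC50 lines, and its difference of 3.38 ± 1.53 turned to −1.24 in lane 2 and −1.19 in basal-like lines, and was 5.22 without HCC70. Of the 14 luminal, 17 basal and 24 collagen and laminin genes tested, 0 had an unadjusted p under 0.05.

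Lists of immune genes had medians above 0, with a wide spread between lines and no member apart. Interferon-stimulated genes had a median of 0.66 over 23 members, with 1 higher at an unadjusted p under 0.05, and genes of HLA and antigen presentation 0.62 over 20, with 1 higher. IFITM1, an antiviral membrane protein, had 1374, 512 and 459 in HCC70, MDA-MB-231 and MDA-MB-157, against 335, 500.4, 408, 195 and 194 in MDA-MB-468, HCC1143, HCC1395, MDA-MB-436 and HCC38. IFI27, another interferon target, named after its values were seen, reached 5595 in HCC70 but was 266 and 69.7 in the other low EC50 lines, against 1.62 to 380.1 in the high EC50 lines. HLA-G had 123 to 545 in the low EC50 lines, against 2.19 to 294 in the high EC50 lines, and it can share reads with other HLA genes. B2M, the chain that all class I molecules need, named in the same way, was at 32.5 in MDA-MB-157, where HCC70 and MDA-MB-231 had 47582 and 9413, against 4238 to 30751 in the high EC50 lines. NF-κB chemokines and cytokines had a median of 0.91 over 19 genes with 0 at an unadjusted p under 0.05. Cancer-testis antigens had the highest median after leukocyte markers, 1.41 over 13, with MAGEA3 at 229, 831 and 1477 in HCC70, MDA-MB-231 and MDA-MB-157, against 3894 in MDA-MB-468, 20.0 in MDA-MB-436 and 0 in HCC1143, HCC1395 and HCC38. MAGEA3 has close copies on the X chromosome that can share its reads. The 5 leukocyte markers tested had a median of 2.12 with 0 at that level, while PTPRC, their defining gene, was at or near 0 in all lines.

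**Figure D4:**
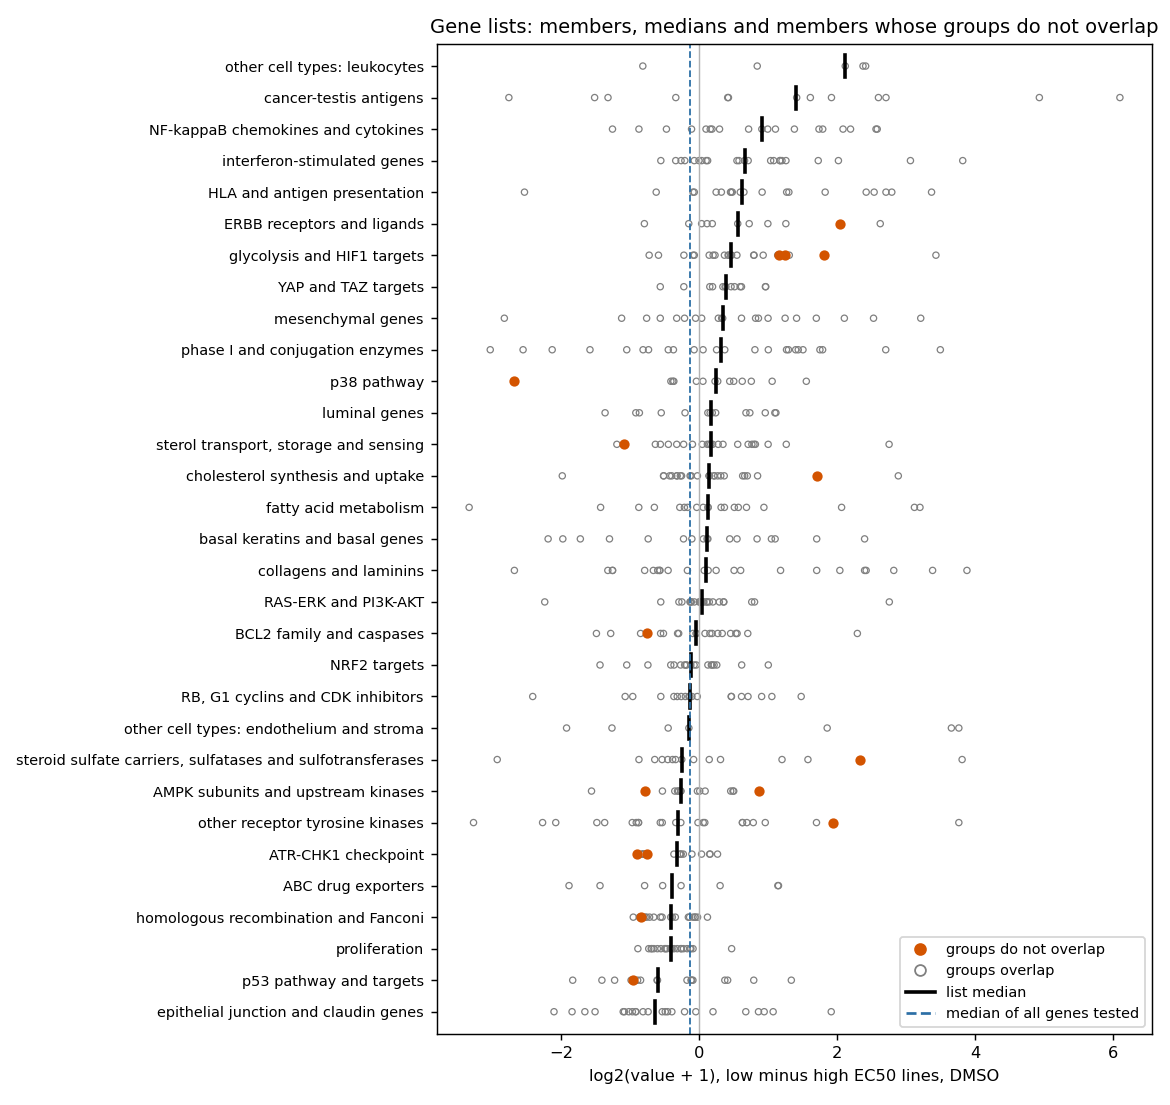
The log2 difference, low minus high EC50 lines in DMSO, of each tested member of 31 gene lists (points), with the median of each list (black bar) and of all genes tested (dashed line, −0.13). Filled points are the members whose groups do not overlap, 8 above and 8 below, and 3 of them are in the list of glycolysis and HIF1 targets. Of all genes tested, 0.786% were apart above and 1.88% below.

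Over all lists, 550 of 607 genes were tested, of which 21 lay above and 11 below with an unadjusted p under 0.05. Over all 14378 genes, 174 (1.21%) lay above and 265 (1.84%) below at that level. In 12 lists a member stood apart, with 8 genes above and 8 below, where 0.786% of all genes were apart above and 1.88% below. Of 13 YAP and TAZ targets, 0 had an unadjusted p under 0.05. In fatty acid metabolism it was 1 of 20, PPARGC1A, the coactivator of mitochondrial genes, with 28.0, 47.7 and 97.6 in HCC70, MDA-MB-231 and MDA-MB-157, against 1.62, 0, 3.03, 39.9 and 16.5 in MDA-MB-468, HCC1143, HCC1395, MDA-MB-436 and HCC38. MDA-MB-436 was within the low EC50 range, and all values were low.

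The same groups were set against each other in the TLT libraries of these lines. They are separate libraries but not other lines, so they show whether a difference between the lines was stable, not whether it holds in further lines. Of 14633 genes tested with TLT, 0 (0%) had an adjusted p under 0.05 (limma, lowest 0.9867), 150 (1.03%) were apart above and 339 (2.32%) apart below. Of the 113 genes apart above in DMSO, 59 (52.2%) were also apart above with TLT, which is 39.3% of those apart with TLT. Of the 270 apart below, 105 (38.9%) were also apart below with TLT, or 31.0% of those apart with TLT.

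Of the 19 genes of widest gap described above, WFIKKN1, CNTNAP3 and ANKRD36 overlapped with TLT, and all 19 kept their sign. CHMP4A stayed apart with a gap of only −0.0078 on the log2 scale, with 460 in MDA-MB-157 against 462 in HCC38. HAUS7 stayed apart but its low EC50 lines were no longer nearly equal, at 339, 221 and 451 in HCC70, MDA-MB-231 and MDA-MB-157. WFIKKN1 with TLT had 58.9, 92.4 and 91.4 in HCC70, MDA-MB-231 and MDA-MB-157, against 31.3 to 87.7 in the high EC50 lines, and its difference was 0.42 ± 0.71. PAPSS2 with TLT had 2192, 3149 and 2082 in HCC70, MDA-MB-231 and MDA-MB-157, against 158 to 854 in the high EC50 lines, and GSR had 782, 446 and 760.4, against 1209 to 1887. HBEGF with TLT had 2183, 3174 and 2108 in the same low EC50 lines, against 440.0 to 886 in the high EC50 lines, so that its groups lay farther apart than in DMSO. PRKAB2 and PRKAG2 also stayed apart, with differences of −1.03 ± 0.35 and 1.24 ± 0.46, as did RAD9A, EPHA2, OSBPL1A, PFKFB3, PFKP and LDHA. The gaps with TLT were narrow for PFKFB3 (0.022), RAD9A (−0.066) and OSBPL1A (−0.089). The groups overlapped with TLT for ATRIP (−1.05 ± 0.61), MAP2K6 (−2.62 ± 1.27), FANCD2 (−0.65 ± 0.48), GADD45A (−0.68 ± 0.54) and BCL2L2, whose difference was −0.08 ± 0.44.

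**Figure D5:**
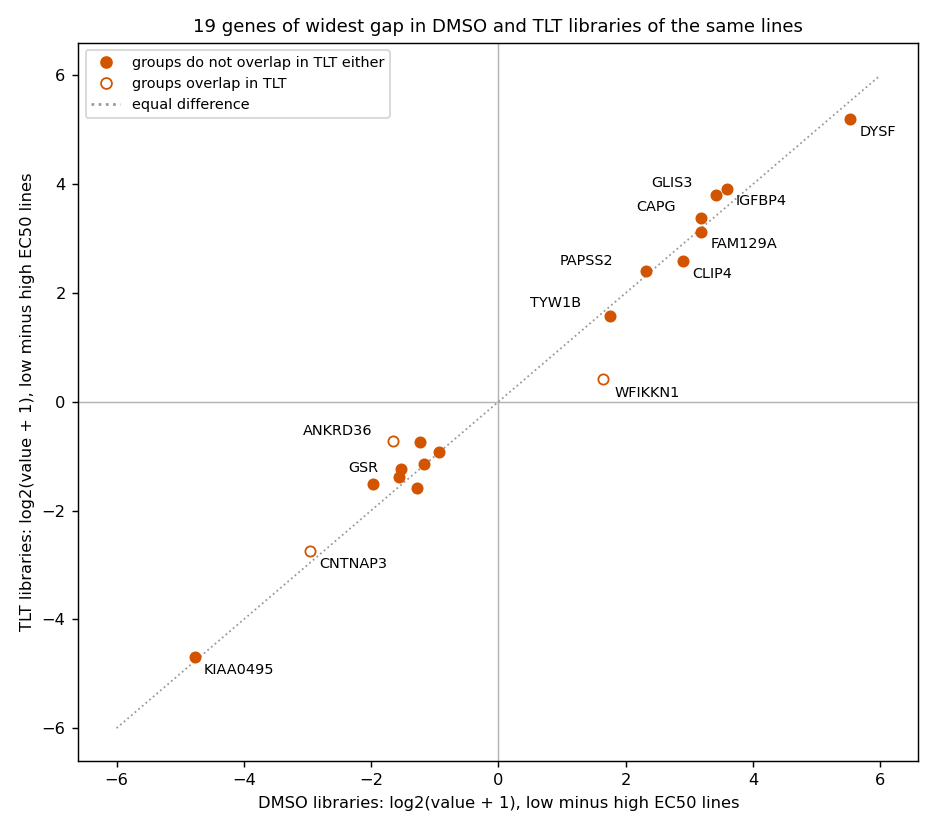
The log2 difference, low minus high EC50 lines, of 19 genes of widest gap in DMSO (x axis) and in the TLT libraries of the same lines (y axis), with filled points where the groups do not overlap with TLT either and a dotted line of equal differences. WFIKKN1 (1.65 in DMSO, 0.42 with TLT), CNTNAP3 and ANKRD36 are the open points.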

How the data were processed

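RNA of 8 breast cancer cell lines, each with DMSO or TLT for 6 h, was measured. Reads were aligned by the authors with MapSplice to hg19 and quantified per gene with RSEM. The deposited values were scaled by upper quartile and are a normalized signal, not counts, so no count test was run. The submitters' notes also name DESeq2 (version 1.4.5) for the authors' own test on re-mapped reads, which was not used here, and neither was the deposited table of fold changes. Of 20531 rows, 29 without a gene name (0.0398% of the signal) were left out. Both deposited matrices hold the same values for the 20474 names they share (largest difference 0). Some names had become dates in a spreadsheet and were left as they stand.

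Lines were grouped by EC50 as the study gives it, with the labels naming the line of each library. All genes averaging 10 or more over the 8 DMSO libraries were fitted as log2(value + 1) with limma 3.58.1 in R 4.3.3 (trend and robust, Benjamini-Hochberg at 0.05), without covariates. Fold changes on this scale understate those of low genes. Exact permutation tests ran over the 56 assignments of 3 of 8 lines in Python 3.11.15. A gene is apart where the groups do not overlap, and this alone gives the smallest exact p, 0.0357, which 42 of 106 named genes reached. Depth was estimated from steps between values under 60, of which 82.9% to 84.5% were whole reads within 0.01 in the DMSO libraries. The libraries carry no strand, so reads of overlapping genes cannot be told apart.

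Named genes were the 10 of widest gap on each side with a lowest value of at least 50 in the higher group, the 2 members of smallest p of each list, the AMPK subunits, STK11, CHEK1, ATR and MAPK14, and those named as chosen after their values were seen. The members and lists were chosen with earlier results of these data known. Some of the named genes are not reported here. The fit was tested on simulated data. Gene positions were taken from GENCODE annotation lifted to GRCh37 (hg19). Alternatives were other scalings, filters and pseudocounts, lane and subtype as terms or alone, the order of EC50, all 16 libraries, and each line left out.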

Additional observations from a re-analysis of the deposited data

Results flagged for a closer look

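In 4 of the 64 genes examined, 1 high EC50 line lay far from the other 4, by Dixon's ratio of the gap to the range (critical value 0.710 for 5 lines). PAPSS2 was at 122 in HCC1143, the lowest high EC50 line. KIAA0495 was at 1137 in HCC38, CNNM3 at 1369 in HCC1143 and REXO4, an exonuclease gene on chromosome 9, at 2323 in HCC38, each the highest high EC50 line. Chance alone flags about 1 in 20 such groups. Each of these values lay on the side away from the low EC50 lines. All of these genes are apart, and a far line on the other side would have narrowed or closed the gap. The side thus follows from how the genes were chosen.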

How the results depend on the processing

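The count of genes with an adjusted p under 0.05 was 0 under each of the alternatives run, and at a threshold of 0.10 it was also 0 over the 8 DMSO libraries. The lowest adjusted p in limma was 0.0683 in claudin-low lines alone, 0.103 in lane 2 alone, 0.189 in lane 1 alone, 0.225 without HCC70 and 0.261 without MDA-MB-157. The 439 genes at an unadjusted p under 0.05 became 726 with subtype as a term, 998 in lane 2 alone, 892 with the order of EC50 in place of groups, 682 in the TLT libraries, and 313 to 689 with a line left out, the 689 without HCC70. The 383 genes whose groups do not overlap became 4728 in lane 1 alone, 8041 in lane 2 alone, 4901 in claudin-low and 7216 in basal-like lines alone, and 503 to 1394 with a line left out, since fewer lines overlap less often. Over all 16 libraries, DMSO and TLT together, it was 92. Of 64 genes followed through the settings, 62 kept their sign in every setting that gave a value, 1529 values in all. Many of the 64 are genes whose groups do not overlap. Their sign cannot turn when lines are left out or 1 lane or subtype is taken alone, so there it was fixed in advance. CHEK1 turned to 0.17 in claudin-low lines, to 0.0458 with the order of EC50 and to 0.0529 without MDA-MB-157 (−0.53 to 0.0529 over lines left out), and COL1A1 turned to −1.24 in lane 2 and −1.19 in basal-like lines. The cause was not tested. No paired analysis was possible because the groups hold different lines. With 3 lines against 5 of other tumors, differences that miss the threshold may still exist. In lane 2 and among basal-like lines HCC70 was the only low EC50 line, assumed to vary like the others.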

Other observations

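Genes that stood below in the low EC50 lines were unevenly placed along the genome (GRCh37), which was noticed after the values were seen and is given as a description. In the stretch of chromosome 2 from 95 to 100 Mb, 15 of 44 tested genes (34.1%) had all low EC50 lines below all high EC50 lines, against 1.88% of all genes, 90.9% had a difference under 0, and the median was −0.84. CNNM3, C2orf64 and ANKRD36 lie there, as do SNRNP200, a spliceosome helicase (5750.0, 5324 and 6217 in HCC70, MDA-MB-231 and MDA-MB-157, against 7671 to 13689 in the high EC50 lines), COX5B, a subunit of cytochrome c oxidase (974 to 1395 in the low, 1641 to 2807 in the high EC50 lines), MRPL30 of the mitochondrial ribosome (594 to 854 in the low, 1204 to 1835 in the high EC50 lines) and STARD7, a lipid transfer protein (2991 to 3880.4 in the low, 5219 to 8585 in the high EC50 lines). The median of the stretch was −0.72 with median-of-ratios scaling, −0.68 in the TLT libraries, where 10 of the 44 stood below, and −0.87 to −0.78 with each line left out in turn.

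On chromosome 9 from 135 to 140 Mb, 12 of 72 genes (16.7%) stood below, 87.5% had a difference under 0, and the median was −0.71, or −0.49 without HCC38. REXO4 (542 to 703 in the low, 924 to 2323 in the high EC50 lines) and PHPT1, a histidine phosphatase (320.4 to 446 in the low, 534 to 1668 in the high EC50 lines), are among them. With median-of-ratios scaling 9 of the 72 stood below, and in the TLT libraries also 9. The tilt alone was not particular to this stretch. On chromosome 12 from 5 to 10 Mb, 91.2% of 57 genes had a difference under 0 (median −0.735), with 3 below. On chromosome 8 from 25 to 30 Mb it was 92.9% of 28 (median −0.604), with 1 below. Of all genes, 40.4% had a difference above 0. The stretch with the next highest number, chromosome 11 from 60 to 65 Mb, had 7 of 106 (6.6%). DNA copy number was not measured here, and its part in these values was not tested.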
